A study of Gallus gallus with 9 samples.

Results

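Serpins are a family of structurally related proteins, most of which trap a protease by offering it a bait loop and changing shape when the loop is cut, so that enzyme and inhibitor end as a locked complex. Their clades differ in where they act. Clade B members mostly lack a classical signal peptide and work inside cells or when released, while members of clades A, C, D, E, F, G and I are mainly secreted, and SERPINH1 is not an inhibitor but a collagen chaperone of the endoplasmic reticulum. In fat tissue the family is known for secreted products such as SERPINF1 and for the plasminogen activator inhibitors.

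The serpins were taken as every probe set whose single gene symbol in the platform annotation starts with SERPIN, which gave 20 probe sets of 14 genes among the 38535 probe sets of the table. All 14 gene IDs were found in the RefSeq gene table. They were read in 9 samples of preadipocytes, the fat-cell precursors, isolated from abdominal tissue of laying hens and grown to confluence. Each group of 3 was either untreated (control), given the adipogenic cocktail DMIOA, or given DMIOA with 10 uM retinoic acid, and each sample was hybridised to a 1-colour Affymetrix chicken array. No group had retinoic acid without DMIOA, so what retinoic acid does alone cannot be told apart from what needs the cocktail. Retinoic acid is made from vitamin A and acts through nuclear receptors that bind DNA. The labels do not expand DMIOA and give no age of the hens. They number biological replicates 1 to 3 without saying which hen or culture each came from, so the p-values measure only the spread between these samples. The titles of the control and DMIOA samples carry a "(2)" that those of the retinoic acid samples lack. What it marks is not explained, and any difference in handling behind it cannot be told apart from retinoic acid.

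The values are log2 expression values made by the authors with GCRMA, with a precision limited by the 3 arrays of each group. A log2 value of 5 was taken as the level below which a signal was not separated from background, and probe sets that reached it on at least 3 arrays were tested. Of the 20 serpin probe sets 11 did so, for 8 genes: SERPINB1, SERPINB2, SERPINB6, SERPINB10B, SERPINE2, SERPINF1, SERPINH1 and SERPINI1. Array medians lay between 2.49 and 2.54, and the closest arrays were retinoic acid replicates 1 and 2 (r = 0.997 over the 12329 tested probe sets). Of 12 mesenchymal markers 9 were at or above 5 on every array, with PDGFRA, DLK1 and ENG below it on all. Of 16 macrophage and leukocyte markers, 0 to 2 reached 5 in replicates 1 and 2 of the groups and 11 to 13 in replicate 3. Their summed level in replicates 1 and 2 was 6.93 to 7.41 on the log2 scale. In replicate 3 it was 13.57 in control, 12.78 with DMIOA and 12.14 with retinoic acid. Of 7 endothelial genes 2 or 3 reached 5 on each array, and ERG and PECAM1 were lower with retinoic acid than in control, by 3.15-fold and at least 4.03-fold (limma adjusted p = 0.0173 and 0.00705). With the replicate number as a block both were also called lower than with DMIOA (0.026 and 0.0325), and PECAM1 lower with DMIOA than in control (0.0477). CDH5, the other endothelial gene tested, was not called in any comparison. It had 7.82, 8.22 and 10.92 in control and 7.89, 7.82 and 10.82 with retinoic acid. KRT7 was the 1 of 4 epithelial and mesothelial genes above 5, and TTR the 1 of 6 hepatocyte genes tested, and neither was called in any comparison. Of the mesenchymal markers PDGFRB was called lower against control (-1.03, limma adjusted p = 0.0385). With the block PDGFRB was called lower against DMIOA too (0.0189), and LUM (0.0276), VIM (0.0332) and the leukocyte gene PTPRC (0.011) were called lower against control. Of all genes 6.12% were called lower than control, or 12.3% with the block. Against DMIOA 1.68% were called lower with retinoic acid, or 4.98% with the block. In the blocked fit 3 of 9 tested mesenchymal, 1 of 11 leukocyte and 2 of 3 endothelial markers were called lower than control with retinoic acid. The part of these cells in the results was not tested. RNA of the whole culture was measured, so fewer cells of a type and less RNA per cell cannot be told apart.

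**Figure D1:**
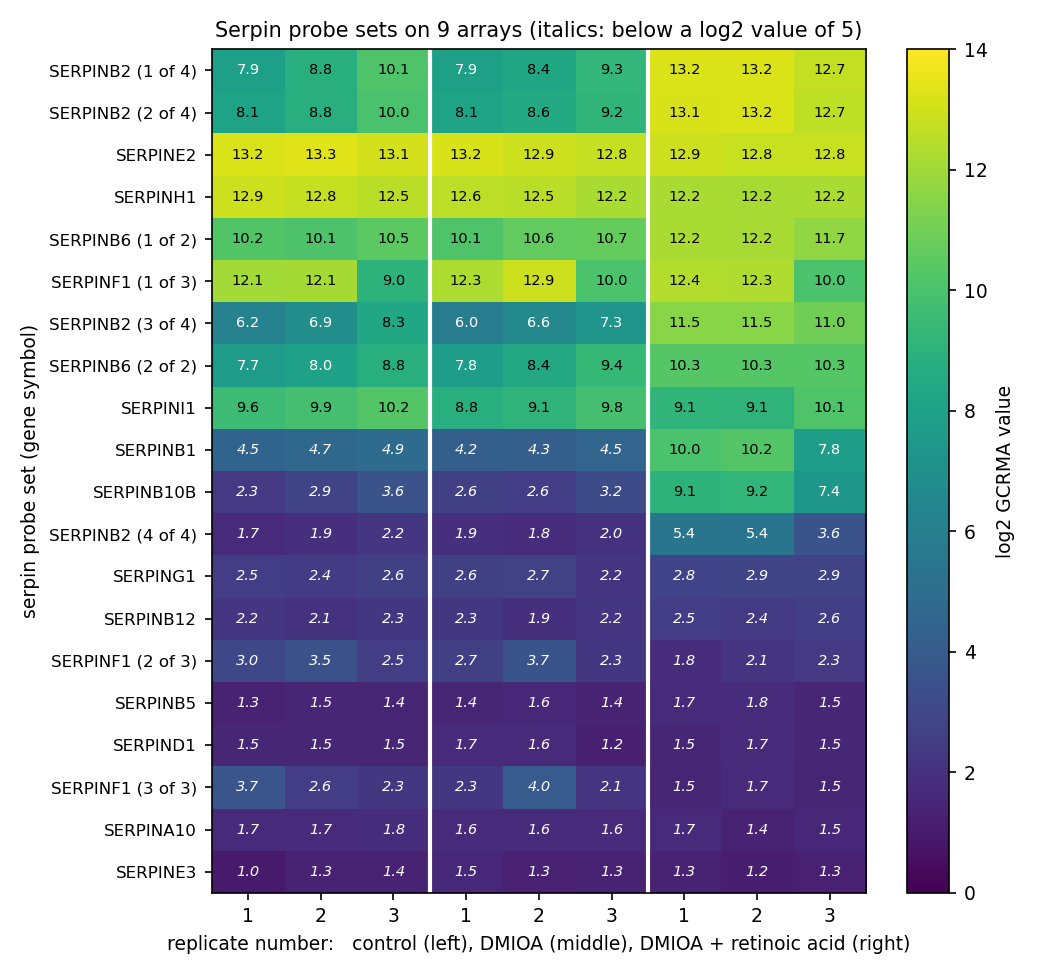
Log2 GCRMA values of the 20 serpin probe sets (rows, by gene symbol, brightest in retinoic acid first) on the 9 arrays (columns, replicates 1 to 3 of control, DMIOA and DMIOA plus retinoic acid). Colour and numbers give the value, and italics mark values below 5; SERPINB2, SERPINB6, SERPINB1 and SERPINB10B are brighter in the 3 columns on the right.

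Retinoic acid added to the cocktail was the treatment with which 4 clade B serpins rose. SERPINB1, SERPINB10B, SERPINB2 and SERPINB6 were each higher on every retinoic acid array than on any DMIOA or control array, and the other 4 tested genes were not called in that comparison. The difference was 20.9-fold for SERPINB2 and 2.90-fold for SERPINB6, and at least 20.3-fold and 11.8-fold for SERPINB1 and SERPINB10B, which lay below 5 on each array without it. In probe sets, 6 of the 11 tested were called higher and 0 lower with retinoic acid added to DMIOA, or 7 and 0 with the replicate number as a block (limma, Benjamini-Hochberg adjusted p under 0.05). Over all 12329 probe sets 3.89% were called in either direction, 2.12% higher and 1.77% lower, or 10.8%, 5.56% higher and 5.27% lower, with the block. SERPINB1 and SERPINB10B passed the filter on low values only through the retinoic acid arrays, where they are high, so the count of tested serpins describes them and is not support.

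SERPINB1 (gene ID 420894) encodes an inhibitor which in mammals acts on elastase, cathepsin G and proteinase 3 of neutrophils and monocytes. Its log2 values were 4.53, 4.66 and 4.89 in control replicates 1, 2 and 3. With DMIOA they were 4.23, 4.26 and 4.54, and with retinoic acid added 10.02, 10.25 and 7.77. All 6 arrays without retinoic acid lay below 5, and retinoic acid replicate 3 stood below the other two but well above those 6. The measured means were 9.35 ± 1.37 (SD, n = 3 arrays) with retinoic acid and 4.34 ± 0.17 with DMIOA. The latter is background level, so the rise is given as at least 20.3-fold (limma adjusted p = 0.00433).

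SERPINB10B (gene ID 395715) is listed in RefSeq also as MENT, a chromatin-associated serpin known in chicken from blood cells of the myeloid and erythroid lines, where it compacts heterochromatin and inhibits cysteine proteases of the cathepsin L type. It had 2.35, 2.88 and 3.56 in control and 2.63, 2.56 and 3.20 with DMIOA. With retinoic acid it had 9.06, 9.20 and 7.43, and no array of either other group reached 5. The measured means were 8.56 ± 0.98 (SD, n = 3 arrays) with retinoic acid and 2.80 ± 0.35 with DMIOA, a rise of at least 11.8-fold (limma adjusted p = 0.000903). Replicates 1 and 2, where SERPINB10B and SERPINB1 were highest, held 1 and 2 of the 16 leukocyte markers at 5 or more with retinoic acid. CTSS stood at 6.04 on both of these arrays, and at 5.32 and 6.04 with DMIOA. CD74 stood at 4.94 and 5.02, against 3.57 and 3.93 with DMIOA. The part of such cells in the rise was not tested. None of the 6 symbols of the erythroid and thrombocyte list had a probe set with that single symbol here.

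SERPINB2 (gene ID 420896) encodes plasminogen activator inhibitor type 2, which in mammals inhibits urokinase. It was measured well above background in all groups. Its brightest probe set, by the mean over the 9 arrays, had 8.13, 8.82 and 10.01 in control, 8.12, 8.56 and 9.18 with DMIOA, and 13.14, 13.21 and 12.66 with retinoic acid. Within control and within DMIOA replicate 3 was the highest, and with retinoic acid it was the lowest. The mean rose from 8.62 ± 0.53 (SD, n = 3 arrays) with DMIOA to 13.00 ± 0.30, a log2 change of 4.38 ± 0.47 (SE, limma adjusted p = 0.00326). The brightest probe set is of a type that can detect more than 1 transcript, and its overlap with the others was not tested. Both other tested probe sets of the gene rose too, by 4.70 ± 0.55 and 4.52 ± 0.56 on the log2 scale. The fourth was at or below 2.24 without retinoic acid and at 5.41, 5.45 and 3.56 with it, so it reached 5 on 2 arrays only and was not tested.

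SERPINB6 (gene ID 420895) encodes an intracellular inhibitor of trypsin-like proteases and cathepsin G in mammals. Its brighter probe set had 10.21, 10.11 and 10.46 in control and 10.15, 10.64 and 10.69 with DMIOA, against 12.21, 12.19 and 11.69 with retinoic acid. The groups did not overlap, and the log2 change from DMIOA was 1.53 ± 0.21 (limma adjusted p = 0.00805). It was 2.06, 1.55 and 1.00 in replicates 1, 2 and 3. The second probe set, of a type that can detect more than 1 transcript, had a log2 difference of 1.78 ± 0.41 (adjusted p = 0.0576, blocked 0.0137). The DMIOA values of that probe set were 7.78, 8.43 and 9.38, with replicate 3 closest to the retinoic acid arrays at 10.30 to 10.32.

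**Figure D2:**
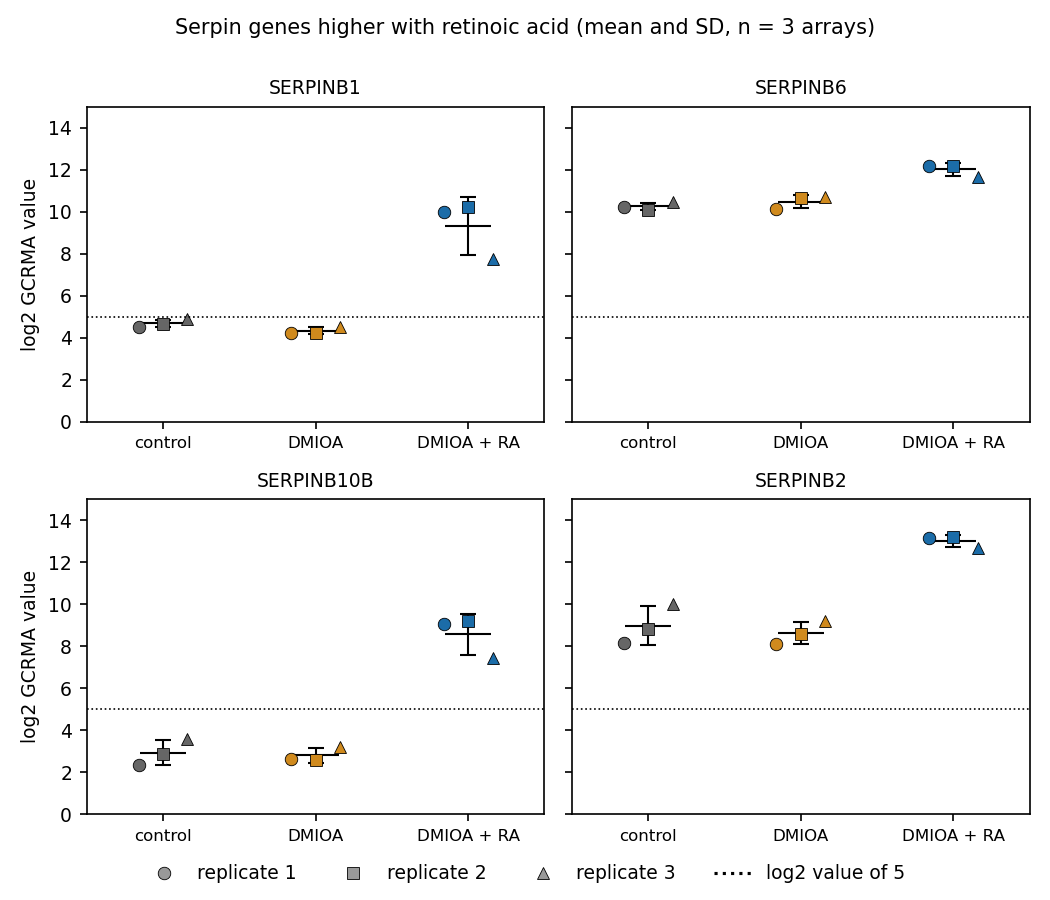
Log2 GCRMA values (y axis) of SERPINB1, SERPINB6, SERPINB10B and SERPINB2, brightest tested probe set each, on the arrays of control, DMIOA and DMIOA plus retinoic acid (RA). Symbols are replicate numbers, bars the mean and SD of 3 arrays, and the dotted line a value of 5; every retinoic acid array lies above all others, and replicate 3 (triangle) is the lowest of them.

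In this comparison the calls of SERPINB1, SERPINB10B, SERPINB6 and the 3 SERPINB2 probe sets held without any 1 of the 9 arrays. They also held under each alternative run, with limma adjusted p up to 0.0490, that of SERPINB6 without retinoic acid replicate 2. SERPINB1 and SERPINB10B passed the filter only through the retinoic acid arrays. Their p-values and the stability of their calls therefore describe the rise and are not support for it. Among the retinoic acid arrays replicate 3 had the lowest value in the brightest probe set of each of the 4 clade B genes. In the dimmer SERPINB6 probe set it did not, with 10.31, 10.30 and 10.32 in replicates 1, 2 and 3. Replicate 3 also carried the leukocyte markers, whose part in the result was not tested. With replicates 1 and 2 of each group alone the log2 difference was 4.83 for SERPINB2 and 1.80 for SERPINB6.

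The 4 genes are neighbours. In the RefSeq annotation of the chicken assembly GRCg7b, the clade B serpins from SERPINB1 to SERPINB5 form a run of 10 adjacent protein-coding genes, in the order SERPINB1, SERPINB6, SERPINB10A, SERPINB10B, SERPINB2, OVAL, OVALY, OVALX, SERPINB12 and SERPINB5. This arrangement was looked up after the rises were known. Of the 10 genes 9 had a probe set, all but SERPINB10A. The 4 at the SERPINB1 end were called higher with retinoic acid, and the 5 from OVAL to SERPINB5 stayed below 5 on all 9 arrays and were not tested. Of the 4, SERPINB1 and SERPINB10B passed the filter only through the retinoic acid arrays. Their calls therefore describe the rise, and the count of 4 is not support. OVAL, which encodes the egg-white protein ovalbumin, reached at most 1.38, OVALY 2.06 and OVALX 3.51. SERPINB12 reached 2.62 and SERPINB5, known in mammals as maspin, 1.76. Outside the run, 12 flanking protein-coding genes were looked at, 6 on each side. Of these 8 had a probe set and 5 were tested. Without the block none of the 5 was called between DMIOA plus retinoic acid and DMIOA, where 3.73% of all genes were called (10.5% with the block). At that share the lack of a call among 5 genes does not set the flanks apart from other genes. The 5 had log2 differences from -0.30 (GMDS) to 0.50 (WRNIP1). WRNIP1, on the SERPINB1 side, was called with the block (blocked adjusted p = 0.0307). Clade B genes are related in sequence. Probe sequences were not used here, and how far a probe set reads a neighbouring family member was not tested.

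**Figure D3:**
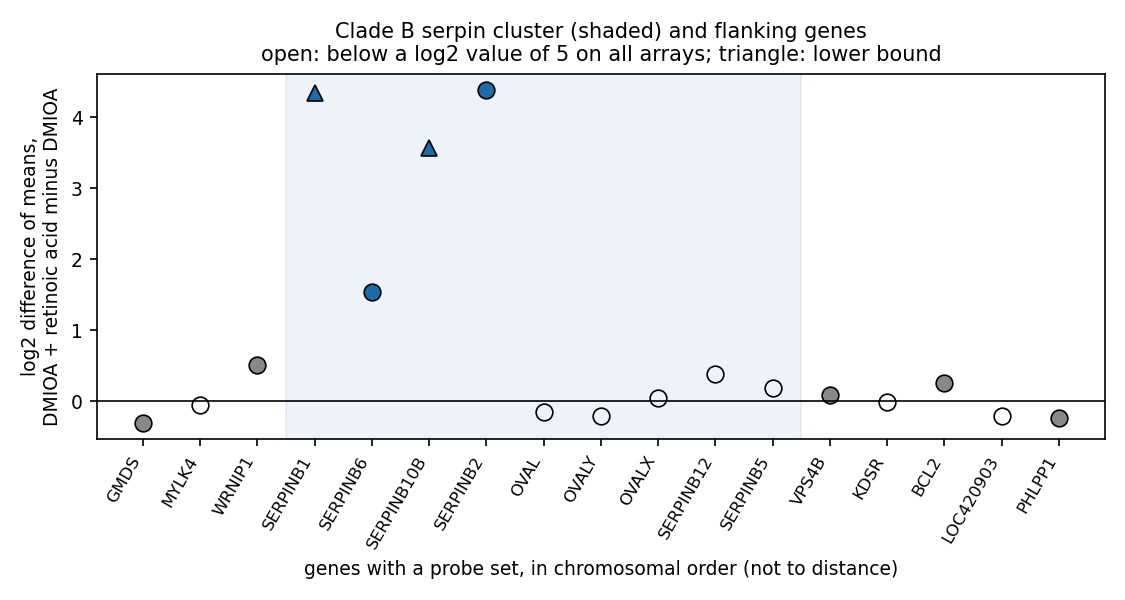
Log2 difference of group means, DMIOA plus retinoic acid minus DMIOA (y axis), for the genes with a probe set in the clade B serpin run (shaded) and its flanks, in chromosomal order and not to distance. Open circles are genes that stayed under 5 (log2) throughout, and triangles are the lower bounds of SERPINB1 (at least 20.3-fold) and SERPINB10B (at least 11.8-fold); SERPINB6 lies at 1.53, SERPINB2 at 4.38 and the filled circles of the flanks between -0.30 and 0.50.

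The genes whose profile over the 9 arrays was most like those of SERPINB1 and SERPINB10B were in part each other. Likeness was the root mean square difference between log2 profiles centred on their own mean, over 6944 other genes, and values below 5 enter it. SERPINB10B was nearest to SERPINB1 at 0.51, where the median over all genes was 2.35. It was followed by the mechanosensitive channel gene PIEZO2 (0.59), SERPINB2 (0.71), the drug efflux pump gene ABCB1 (0.75) and the retinol-binding protein gene RBP5 (0.78). After SERPINB1, the nearest to SERPINB10B were CYP26B1 (0.62), a retinoic acid hydroxylase gene, the lipase gene LIPI (0.75), PIEZO2 (0.76) and CYP24A1 (0.77), which inactivates vitamin D, where the median was 2.72. All of these share the same 9 arrays. The root mean square of the centred profiles of SERPINB1 and SERPINB10B themselves was 2.37 and 2.75, close to those medians. Any gene with a rise of similar size under retinoic acid thus scores well below the median. PIEZO2 was likewise lowest in replicate 3 of the retinoic acid group, with 8.38, 7.81 and 6.76 under retinoic acid, whereas CYP26B1 had 8.26, 8.33 and 8.43.

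The cocktail alone left the serpins without a call. Between DMIOA and control 0 of the 11 tested probe sets were called by limma with or without the block, where 0.146% of all probe sets were called (1.29% with the block). At that share the lack of a call among 11 probe sets does not set the serpins apart from other genes. None of the 11 had an unadjusted limma p under 0.05, against 1429 of all 12329 probe sets. The fitted log2 differences of the genes ran from -0.64 for SERPINI1 to 0.68 for SERPINF1. SERPINB1 and SERPINB10B were below 5 on all 6 arrays of this comparison, so no change between these groups could be measured for them. The 95% interval was -1.45 to 0.72 for the brightest SERPINB2 probe set and -0.25 to 0.71 for the brighter one of SERPINB6.

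Cells given DMIOA plus retinoic acid were also compared with untreated cells, a comparison that shares the retinoic acid arrays with the one above. Here 7 of the 11 tested probe sets were called higher and 1 lower, with the same numbers under the block, where 13.2% of all probe sets were called (6.74% higher and 6.42% lower), or 28.8% with the block (15.8% and 13%). The higher ones were those of SERPINB1 (at least 20.3-fold), SERPINB10B (at least 11.8-fold), SERPINB2 (log2 differences of 4.02 to 4.18) and SERPINB6 (1.77 and 2.14). SERPINB1 and SERPINB10B passed the filter only through the retinoic acid arrays, so the count describes them and is not support. The call of the dimmer SERPINB6 probe set was lost, with adjusted p up to 0.0653, without replicate 1 or replicate 2 of either group compared. The serpin called lower was SERPINH1 (gene ID 396228).

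SERPINH1, also known as HSP47, binds procollagen in the endoplasmic reticulum and helps it fold. It stood at 12.91, 12.76 and 12.53 in control replicates 1, 2 and 3. It had 12.59, 12.54 and 12.22 with DMIOA and 12.21, 12.16 and 12.21 with retinoic acid. All retinoic acid arrays lay below all control arrays, by a fitted log2 difference of -0.54 ± 0.15 (limma adjusted p = 0.0476, blocked 0.0177), which is 1.45-fold. The DMIOA mean of 12.45 lay between, and its log2 differences from control and from retinoic acid, -0.28 and -0.26 in the order of treatment, were not called (adjusted p = 0.504 and 0.452). The call was lost without control replicate 1 or 2, DMIOA replicate 1 or 2, or any retinoic acid array, with adjusted p of 0.0519 to 0.157, and without the filter on low values (0.0632). The difference itself stayed at -0.55 to -0.45 in these settings.

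Of the genes that fold and process collagen alongside SERPINH1, 16 of 25 listed symbols had a probe set with that single symbol and 13 were tested. Between DMIOA plus retinoic acid and control 1 was called higher and 2 lower, or 1 and 4 with the block, with a list median of -0.02 against 0.09 over all 6945 genes, of which 12.9% were called, 6.74% higher and 6.12% lower (28.3%, 16% and 12.3% with the block). P4HA3, a subunit of the prolyl 4-hydroxylase that stabilises the collagen helix, fell from 7.64 ± 0.40 (SD, n = 3 arrays) to 5.36 ± 0.33 (limma adjusted p = 0.00262). P4HA3 stood at 6.22 ± 0.34 with DMIOA. Neither its difference from control nor that from retinoic acid was called there, with or without the block. Its relative P4HA2 rose from 10.47 ± 0.60 to 12.35 ± 0.31 (adjusted p = 0.00807), and also against DMIOA, by 2.13 on the log2 scale (adjusted p = 0.00949). CRTAP, part of the prolyl 3-hydroxylation complex, changed by -0.61 (adjusted p = 0.0199), a call lost without replicate 1 or replicate 2 of either group (up to 0.0853). PLOD2, a lysyl hydroxylase gene, had a difference of 0.29 and was not called (adjusted p = 0.129). Against DMIOA 1 gene of the list was called, P4HA2, which was higher. With the block 1 was called higher and 1 lower against DMIOA, and the list median was -0.07. Of all genes 3.73% were called there, 2.04% higher and 1.68% lower (10.5%, 5.49% and 4.98% with the block). Between DMIOA and control limma called 0 genes of the list, with a median of -0.09 against 0.03 over all genes. Of the 13 tested 2 had an unadjusted limma p under 0.05, as did 1429 of all 12329 probe sets. Of all genes 0.144% were called there (1.28% with the block).

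SERPINE2, SERPINF1 and SERPINI1 were not called in any of the 3 comparisons, with or without the block. SERPINE2 (gene ID 424805), known as protease nexin 1, inhibits thrombin and the plasminogen activators at the cell surface and in the matrix. It lay between 12.78 and 13.31 on all 9 arrays. Its retinoic acid arrays, at 12.94, 12.84 and 12.85, were below the control arrays, at 13.22, 13.31 and 13.06, but the log2 difference of -0.32 ± 0.13 was not called (adjusted p = 0.146, blocked 0.0678).

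SERPINF1 (gene ID 417561), the pigment epithelium-derived factor, is a secreted serpin without inhibitory activity that limits vessel growth and is known from fat cells and their precursors. Its brightest probe set differed by replicate number more than by treatment. Replicates 1 and 2 had 12.09 and 12.13 in control, 12.30 and 12.94 with DMIOA and 12.38 and 12.34 with retinoic acid, while replicate 3 had 9.04, 10.05 and 10.03 in the same order. Replicate 3 minus the mean of the other two was -3.07, -2.57 and -2.32 on the log2 scale, in the arrays where 11 to 13 of the leukocyte markers reached 5. Whether the markers have a part in this was not tested. The fitted difference between DMIOA plus retinoic acid and DMIOA was -0.18. Without the block its 95% interval was -2.74 to 2.38, which holds the spread between replicate numbers and leaves large changes undetected in that fit. With the block the SE was 0.20 (limma blocked adjusted p = 0.618). The log2 differences within replicates 1, 2 and 3 were 0.08, -0.61 and -0.02. Both other SERPINF1 probe sets stayed below 5 throughout, at 3.65 and 4.01 or less.

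SERPINI1 (gene ID 425002), neuroserpin, inhibits tissue-type plasminogen activator and is best known from neurons. It had 9.60, 9.85 and 10.24 in control, 8.84, 9.08 and 9.85 with DMIOA and 9.15, 9.12 and 10.12 with retinoic acid. Replicate 3 was the highest in each group, by 0.52, 0.88 and 0.99 over the mean of the other two. Within each replicate number both treated arrays lay below control, with log2 differences of -0.77 to -0.39 for DMIOA and -0.73 to -0.12 for DMIOA plus retinoic acid. Neither difference was called (adjusted p = 0.543 and 0.460, blocked 0.0839 and 0.0541).

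**Figure D4:**
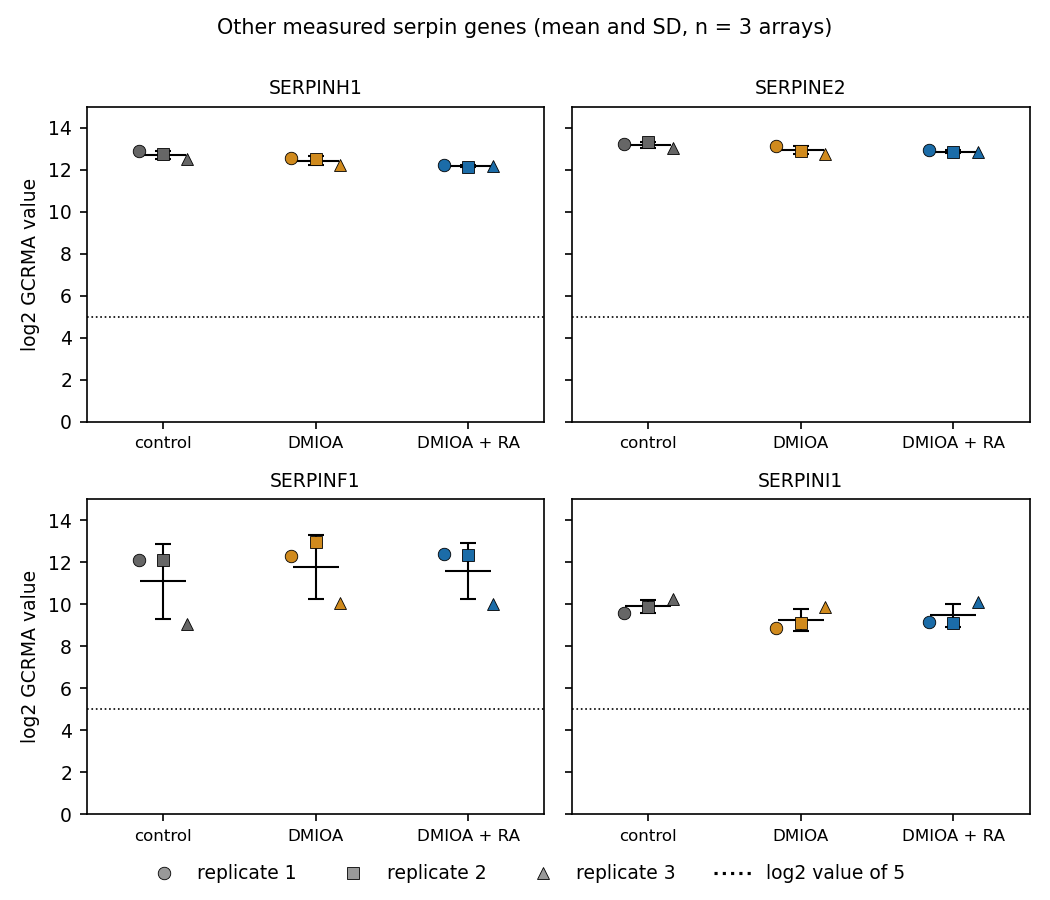
Log2 GCRMA values (y axis) of SERPINH1, SERPINE2, SERPINF1 and SERPINI1, brightest tested probe set each, by group on the same scale as for the clade B genes. Symbols are replicate numbers, bars the mean and SD of 3 arrays, and the dotted line a value of 5; SERPINF1 replicate 3 (triangle) lies at 9.04 to 10.05 where replicates 1 and 2 lie at 12.09 to 12.94.

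The remaining 6 serpin genes were below 5 on all 9 arrays. They were SERPINB12 and SERPINB5 of the run described above, SERPINA10, the protein Z-dependent inhibitor (highest value 1.83), SERPIND1, heparin cofactor II (1.69), SERPINE3 (1.53) and SERPING1, the C1 inhibitor of the complement cascade (2.89). Serpins that the annotation lists under other symbols were also low. AGT, which encodes the angiotensin precursor and belongs to clade A, reached 2.18, and the clade A genes SPIA4 and SPIA1 reached 2.11 and 2.01. SERPINC1 and SERPINF2 had no probe set with their single symbol.

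The proteases that serpins act on, their cofactors and unrelated inhibitors were read as a list of 42 symbols. Of these, 33 had a probe set with that single symbol and 14 were tested. Many of the classical targets were not measured above background, and other genes of the list were bright. Of the 42 symbols 18 stayed below 5 on all 9 arrays. Another 9 had no probe set with their single symbol and so were not read here. Whether probe sets with several symbols or none read them was not looked at. Among the 9 were ELANE and CTSL, for neutrophil elastase and cathepsin L. The plasminogen activator genes PLAU and PLAT reached at most 4.65 and 3.57, PLG and F2, which encode plasminogen and prothrombin, 2.40 and 1.44, and CTSG, which encodes cathepsin G, 2.15. The cathepsin genes CTSB and CTSK lay at 12.40 to 13.64 and 10.58 to 11.88. Neither was called in any comparison, with or without the block. With retinoic acid added to DMIOA 1 gene of the list was called higher, or 3 higher and 1 lower with the block, of 14 tested, where 3.73% of all genes were called (10.5% with the block). The list median was 0.30 against 0.06 over all genes. ST14, which encodes the membrane serine protease matriptase, had 7.27, 8.07 and 8.04 with DMIOA and 9.36, 9.38 and 9.12 with retinoic acid. Its log2 change of 1.49 ± 0.30 was called (limma adjusted p = 0.0342), but not without any 1 array other than control replicate 3 (up to 0.144), nor without the filter (0.0577).

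Against untreated cells 2 genes of the list were called higher and 1 lower, or 5 and 1 with the block, of 14 tested. Of all genes 12.9% were called there (28.3% with the block), and the list median was 0.04 against 0.09. ST14 was higher by 1.75 (limma adjusted p = 0.00942) and TFPI, the tissue factor pathway inhibitor, by 1.12 (0.0270). FAP, a serine protease gene of activated fibroblasts, fell from 11.63 ± 1.00 (SD, n = 3 arrays) to 8.96 ± 0.35 (adjusted p = 0.0175). With DMIOA alone FAP stood at 10.33 and TFPI at 10.64, between their control and retinoic acid means. Between DMIOA plus retinoic acid and DMIOA neither was called without the block. With it FAP was called lower (limma blocked adjusted p = 0.0305) and TFPI was not called. F2RL1, a receptor that trypsin-like proteases cleave, had a log2 difference of 1.57 (adjusted p = 0.0524, blocked 0.000718). Against DMIOA the F2RL1 difference was 1.85 (limma adjusted p = 0.0625, blocked 0.000639). In both comparisons F2RL1 was called in the fit with the block and not in that without it. Some of the other alternatives run called it too. The calls of TFPI and FAP were lost without replicate 1 or replicate 2 of either group, and that of TFPI without retinoic acid replicate 3 (adjusted p up to 0.0979 for TFPI and 0.0717 for FAP). With DMIOA against control limma called 0 genes of the list with or without the block, where 0.144% of all genes were called (1.28% with the block). The list median was -0.19 against 0.03 over all genes. Of the 14 genes 3 had an unadjusted limma p under 0.05, as did 1429 of all 12329 probe sets.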

How the data were processed

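The deposited table holds 1 column of log2 expression values for each of the 9 samples, computed with GCRMA by the authors, as the submitters' processing notes name it. That the values are on a log2 scale was judged from their range. Which GCRMA version was run is not given in the sources. Scanner files were not used here. Gene symbols came from the platform annotation (27178 probe sets with 1 symbol, 177 with several, 11180 with none). No coordinates are printed, since no build is tied to the probe sets.

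Of 37693 chicken probe sets, the 12329 (6945 named genes) that reached log2 5 on 3 or more arrays were tested. They were fitted with limma 3.58.1 under R 4.3.3 (lmFit, eBayes) as 1 mean for each group, which leaves 6 residual degrees of freedom. A second fit added the replicate number as a block and leaves 4. Benjamini-Hochberg adjustment ran over the whole set, with calls made under 0.05. A fold is given as "at least" where arrays on the dim side were under 5, which then entered it as 5. For lists, the probe set with the highest mean stood for a gene.

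Same-numbered samples of different groups deviated together (9 pairs, r = 0.375 to 0.857). The labels do not say that a number pairs samples. The main fit therefore took no pairing, and only the second fit used the numbers as a block. The 18 differently numbered pairs had r of -0.804 to 0.668. Replicate 3 stood apart, and replicates 1 and 2 correlated across numbers (0.321 to 0.668) about as within them (0.375 to 0.73). Named were every tested serpin, up to 4 genes of each list by p, and the 5 genes nearest to SERPINB1 and SERPINB10B. Members and lists were chosen with earlier results of these data known. The scripts were tested on simulated data. Alternatives covered the filter, cyclic loess, the variance model, array weights, the arrays entered and the block. The mesenchymal and leukocyte marker lists are described with the arrays. Of the endothelial list 3 of 7 genes were tested, of the epithelial and mesothelial 1 of 4, and of the hepatocyte list 1 of 6.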

Additional observations from a re-analysis of the deposited data

How the results depend on the processing

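The number of serpin probe sets called was 0 under every alternative run for DMIOA against control, 6 or 7 for DMIOA plus retinoic acid against DMIOA, and 8 to 10 (6 to 8 without 1 array) against control. The counts with retinoic acid include SERPINB1 and SERPINB10B, which pass the filter only through those arrays. For these genes the stability of the counts is not support. The replicate block changed no call of a serpin but that of the dimmer SERPINB6 probe set against DMIOA (blocked adjusted p = 0.0137). Array weights called 67.5% of all probe sets in the comparison with control, so its counts there say little. The counts of the 2 other lists changed more, and the causes were not tested. The share of all probe sets called changed too. Against DMIOA it was 3.89%, and 1.75% with the compared groups only, 9.99% with array weights and 10.8% with the block. Replicates 1 and 2 only gave 12.3%, and no filter 1.29%. Against control it was 13.2%, 13.5% with the compared groups only, 28.8% with the block and 4.55% without the filter. Replicates 1 and 2 only gave 29.4% there. For DMIOA against control it was 0.146%, and 2.18% with array weights. For the protease list against DMIOA the count was 1, with 0 to 2 when 1 array was left out, and 5 with array weights, 0 with the compared groups only, 2 without the filter, and 4 with the block (DMIOA replicate 2 in or out) or with replicates 1 and 2 only. Against control it was 3, with 1 to 5 when 1 array was left out, and 11 with array weights, 5 with the compared groups only or without the filter, 6 with the block, and 7 with the block and without DMIOA replicate 2 or with replicates 1 and 2 only. For DMIOA against control it was 0, and 2 with array weights. For the collagen list against control it was 3, with 2 to 4 when 1 array was left out, 9 with array weights, and 5 with the block (DMIOA replicate 2 in or out) or with replicates 1 and 2 only. Against DMIOA it was 1, and 3 with array weights or replicates 1 and 2 only, 2 with an intensity trend, without the filter or with the block. For DMIOA against control it was 0, and 1 with array weights or replicates 1 and 2 only.

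Signs that turned were of differences not called on either side. For DMIOA against control, the values without 1 array ran from -0.42 to 0.19 for SERPINB10B, from -0.79 to 0.15, -0.999 to 0.078 and -0.92 to 0.20 for the 3 SERPINB2 probe sets, from -0.061 to 0.74 for the dimmer SERPINB6 probe set, from -0.35 to 1.54 for SERPINF1, from -0.63 to 0.072 for F2RL1 and from -0.47 to 0.095 for P4HA2. In the same comparison SERPINB10B had 0.13 with the block and without DMIOA replicate 2, SERPINF1 -0.10 with array weights, and P4HA2 0.039 with array weights and 0.085 with replicates 1 and 2 only. For retinoic acid against DMIOA the ranges were -1.04 to 0.59 for SERPINF1, -0.12 to 0.50 for SERPINI1 and -0.16 to 0.027 for SERPINE2, and with array weights SERPINF1 had 0.36 and SERPINI1 -0.0689. Against control SERPINF1 ran from -0.53 to 1.27. With array weights SERPINE2 and SERPINI1 were called lower there, and SERPINI1 also with replicates 1 and 2 only (adjusted p = 0.0354). With 3 arrays per group and no detection calls, changes in serpins near or below a log2 value of 5 could not be measured.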
